A study of Homo sapiens with 4 samples.

Results

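The genes described here are 10 feedback and output genes of receptor tyrosine kinase and ERK signalling: SPRY1, SPRY2, SPRY4, SPRED1, SPRED2, ETV4, ETV5, PHLDA1, EPHA2 and IER3. They were taken by symbol from a table of 33117 rows, and each symbol had 1 row. RNA was measured in HT29, a human cell line from a colorectal adenocarcinoma that carries an activating mutation of BRAF. Of 4 libraries, 2 came from cells given 100 µM fluorouracil (5FU) for 2 h and 2 from untreated cells, all grown in DMEM with fetal calf serum. Whether the untreated cells received a vehicle is not stated. Fluorouracil is a pyrimidine analogue whose metabolites inhibit thymidylate synthase and enter RNA and DNA. The study's title links immediate early genes, SHH and chemotherapy, and the comparison of treated with untreated cells asks how transcripts responded to the drug.

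Receptor tyrosine kinases signal through RAS, RAF, MEK and ERK, and ERK switches on genes that hold the same pathway back. Sprouty proteins act between the receptor and RAS, SPRED proteins bring the RAS-inactivating protein neurofibromin to the membrane, and ETV4 and ETV5 are ETS transcription factors made when ERK is active. In cells with mutant BRAF, transcripts of this kind are widely used as a readout of ERK output because they fall when MEK is inhibited.

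The values were read as FPKM, a unit taken from the tool named in the processing notes, since the header of the table names none. FPKM divides fragments by the length of the transcript and by the library total, so levels of different genes can be set side by side. The number of fragments is unknown, so no counting interval is given. Fluorouracil replicate 2 stood apart. Its values carried at most 6 significant digits, against at most 17 in the other 3 libraries, so it may have been processed differently, which was not tested. Its FPKM summed to 764861, against 440558 in fluorouracil replicate 1 and 434628 and 427007 in untreated replicates 1 and 2. Its changes also followed the base composition of the transcripts. In the quintile of protein-coding genes richest in G and C, fluorouracil replicate 2 had a median log2 change of 1.32 from the untreated mean, and fluorouracil replicate 1 a median of 0.0037. In the poorest quintile these medians were -0.83 and -0.03. Each of the 10 genes is therefore given in each library, and also after a correction for GC content and length, a loess trend subtracted from every library. The part of the trend in any result was not tested beyond this. Separate cultures are not named for the replicates, so the p-values rest on a spread between libraries that may be technical.

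Of 10 colon epithelium markers 8 averaged at least 1 FPKM, with EPCAM at 345 to 407 FPKM, while the transcription factor genes CDX1 and CDX2 stayed below 1 FPKM in every library. Fibroblast markers summed to 3.36 and 2.17 FPKM in the fluorouracil libraries and to 4.82 and 4.24 FPKM in the untreated ones, with COL1A2, COL3A1 and DCN at 0 throughout. Most of that was LUM, at 3.04 and 1.93 FPKM in the fluorouracil libraries and 4.75 and 4.15 FPKM in the untreated ones. Endothelial markers summed to 0.051 and 0.122 FPKM in the fluorouracil libraries and to 0.0969 and 0.0977 FPKM in the untreated ones. Leukocyte markers summed to 1626 and 1761 FPKM in the fluorouracil libraries and to 1837 and 1696 FPKM in the untreated ones, nearly all of it LYZ, a gene that secretory intestinal cells also express, and PTPRC was at most 0.01 FPKM. In RNA from a whole culture, fewer cells that express a gene and less RNA per cell cannot be told apart.

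The Sprouty genes differed in direction. SPRY1 was lower in both fluorouracil libraries, and SPRY2 and SPRY4 were higher in both. SPRY1 lies at chr4:123396795-123403760 (plus strand), SPRY2 at chr13:80335976-80340951 (minus strand), and SPRY4 at chr5:142310427-142326455 (minus strand), all in GRCh38 by GENCODE 29. SPRY1 had 1.01 and 2.44 FPKM in fluorouracil replicates 1 and 2, against 5.90 and 5.35 FPKM in untreated replicates 1 and 2. Both treated values lay below both untreated ones, and the means were 1.72 ± 1.01 FPKM in treated and 5.63 ± 0.390 FPKM in untreated cells (SD, n = 2 each). On the log2(FPKM + 0.1) scale the difference of fluorouracil from untreated cells was -1.77 (SE 0.53), with a limma adjusted p of 0.671 over 12462 genes. In fluorouracil replicate 1 the log2 change of SPRY1 was -2.37, at percentile 0.2 of all tested genes ranked by change. In fluorouracil replicate 2 it was -1.17, at percentile 13.2.

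SPRY2 had 7.09 and 8.47 FPKM in fluorouracil-treated cells, against 5.47 and 5.62 FPKM in untreated cells. The groups did not overlap, and the difference was small, with a log2 change of 0.48 (SE 0.28, limma adjusted p = 0.671). SPRY4 had 8.94 and 16.6 FPKM in fluorouracil-treated cells, against 7.13 and 6.67 FPKM in untreated cells. Its groups did not overlap either, with log2 changes of 0.37 and 1.25 in fluorouracil replicates 1 and 2. Over all libraries the log2 change of SPRY4 was 0.81 (SE 0.40, limma adjusted p = 0.671). Corrected for GC content and length, the changes in fluorouracil replicates 1 and 2 were -2.39 and -1.10 for SPRY1, 0.31 and 0.37 for SPRY2, and 0.36 and 0.93 for SPRY4, each with the same sign as before.

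Within a library, the ratio of 2 genes does not depend on the total it was scaled to, though it still carries a trend with base composition (44.8%, 48.3% and 52.2% G and C in the SPRY1, SPRY2 and SPRY4 transcripts). SPRY4 stood at 8.87 and 6.78 times the FPKM of SPRY1 in the fluorouracil libraries, against 1.21 and 1.25 times in the untreated ones. SPRY2 stood at 7.04 and 3.47 times the FPKM of SPRY1 in the fluorouracil libraries, against 0.926 and 1.05 times in the untreated ones. SPRY1 thus made up 5.92% and 8.89% of the summed FPKM of the 3 genes in treated cells, against 31.9% and 30.3% in untreated cells. The sum itself was 17.04 and 27.47 FPKM in treated cells, against 18.5 and 17.6 FPKM in untreated cells, so its groups overlapped. SPRY3, the remaining Sprouty gene, had 0.808 and 0.392 FPKM in treated cells, against 0.550 and 0.573 FPKM in untreated cells, too low to be tested. These ratios were formed after the values were seen, and an exact permutation test of 2 libraries against 2 cannot give a two-sided p below 0.33. In fluorouracil replicate 1 they rest on a SPRY1 value of 1.01 FPKM, near the filter of 1 FPKM, and its precision is unknown without the depth.

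**Figure D1:**
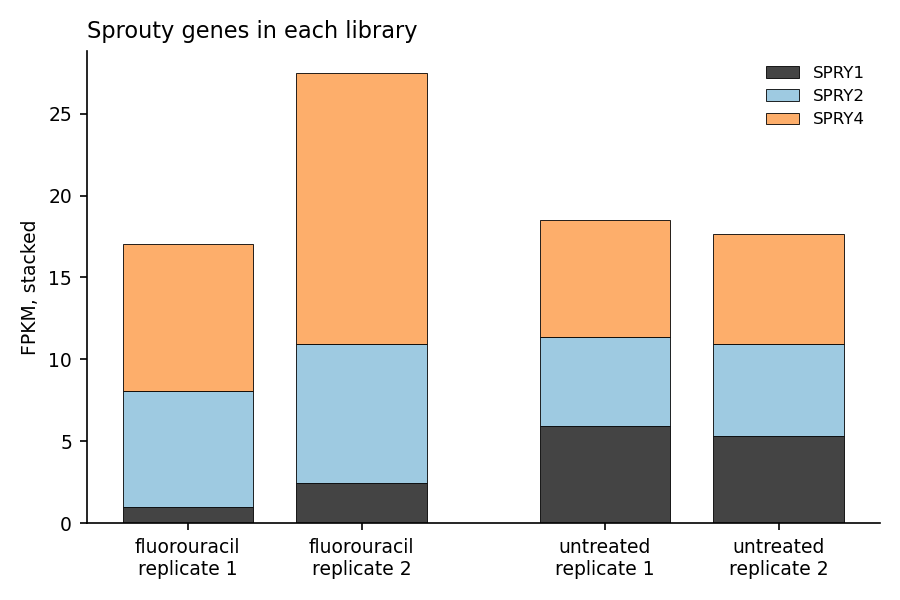
FPKM of SPRY1, SPRY2 and SPRY4 stacked for each library, fluorouracil on the left and untreated on the right. SPRY1 takes 5.92% and 8.89% of the stack in the fluorouracil libraries and 31.9% and 30.3% in the untreated ones, while the height is 17.04 and 27.47 FPKM in the fluorouracil libraries against 18.5 and 17.6 FPKM in the untreated ones.

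The sequences before RefSeq gene starts are shown because the Sprouty genes differed in direction and PHLDA1 and EPHA2 are read beside them as ERK output. Only the windows with a motif match are printed. RefSeq windows on GRCh38.p14 were at hand for 7 of the 10 genes, SPRY1, SPRY2, SPRY4, SPRED1, SPRED2, PHLDA1 and EPHA2, in 11 windows, since some have several starts. The 250 bases before each start were searched on both strands for 6 motifs. These were CCGGAA, bound by ETS factors; TGANTCA, bound by AP-1; TGACGTCA, the cyclic AMP response element; TGAATGNA, bound by the ERK-controlled repressor Capicua; GCGNGGGCG, bound by EGR factors; and the CArG box of serum response factor. Capitals mark the matches in the sequences, which run 5′ to 3′ on the strand of the gene. They are SPRY1 at chr4:123398136-123398385 on the plus strand, the second of its windows, and, on the minus strand, SPRY2 at chr13:80341127-80341376, SPRY4 at chr5:142324248-142324497, PHLDA1 at chr12:76031777-76032026 and EPHA2 at chr1:16156070-16156319.
SPRY1: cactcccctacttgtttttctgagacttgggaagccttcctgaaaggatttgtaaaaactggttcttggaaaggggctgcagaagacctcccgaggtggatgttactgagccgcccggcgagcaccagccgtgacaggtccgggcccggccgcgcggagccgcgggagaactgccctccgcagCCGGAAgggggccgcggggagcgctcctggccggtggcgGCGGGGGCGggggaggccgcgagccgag
SPRY2: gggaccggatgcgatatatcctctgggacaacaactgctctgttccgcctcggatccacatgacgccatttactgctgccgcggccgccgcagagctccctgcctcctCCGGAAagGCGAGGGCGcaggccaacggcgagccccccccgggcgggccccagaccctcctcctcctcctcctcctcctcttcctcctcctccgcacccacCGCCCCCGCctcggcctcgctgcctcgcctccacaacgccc
SPRY4: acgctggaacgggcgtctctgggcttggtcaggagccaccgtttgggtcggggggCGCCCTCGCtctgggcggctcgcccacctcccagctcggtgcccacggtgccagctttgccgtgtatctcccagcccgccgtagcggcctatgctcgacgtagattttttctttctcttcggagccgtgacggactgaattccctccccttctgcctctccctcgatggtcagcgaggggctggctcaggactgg
PHLDA1: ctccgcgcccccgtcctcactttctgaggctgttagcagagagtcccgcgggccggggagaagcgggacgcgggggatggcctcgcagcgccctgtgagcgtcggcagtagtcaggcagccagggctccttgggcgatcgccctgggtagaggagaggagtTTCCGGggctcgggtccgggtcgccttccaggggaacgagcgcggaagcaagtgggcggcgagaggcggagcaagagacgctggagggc
EPHA2: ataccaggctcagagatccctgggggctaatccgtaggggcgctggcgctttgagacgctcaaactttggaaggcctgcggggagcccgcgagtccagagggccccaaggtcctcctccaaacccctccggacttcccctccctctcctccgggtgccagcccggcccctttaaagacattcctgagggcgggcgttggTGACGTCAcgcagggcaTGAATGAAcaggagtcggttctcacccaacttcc

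The ETS letters were found in 3 of the 11 windows, 1 each of SPRY1, SPRY2 and PHLDA1, and in 14.5% of 35116 windows of all genes. The EGR letters, which contain the GGGCG of a GC box, were found in 3 windows, 1 each of SPRY1, SPRY2 and SPRY4, and in 8.41% of all windows. In SPRY2 an ETS match and an EGR match stood 142 and 134 bases before the start, and no matches overlapped. Thus 1 window of SPRY1, which was lower in treated cells, and 1 of SPRY2, which was higher, held the same pair of motifs. The SPRY4 window held the EGR letters alone. The other windows of SPRY1 and SPRY2, and those of SPRED1 and SPRED2, had no match to any motif. The EPHA2 window had the cyclic AMP response element, present in 1.65% of all windows, and the Capicua letters, present in 3.25%. The AP-1 letters (6.57% of all windows) and the CArG box (1.16%) were in none of the 11. A match describes the letters and not a bound site.

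SPRED1 and SPRED2, which encode relatives of Sprouty that carry neurofibromin to RAS, were close to the untreated level in fluorouracil replicate 1 and lay on opposite sides of it in replicate 2. SPRED1 lies at chr15:38252326-38357249 (plus strand), and SPRED2 at chr2:65310851-65432637 (minus strand). SPRED1 had 15.2 and 6.77 FPKM in fluorouracil-treated cells, against 15.6 and 16.8 FPKM in untreated cells. Both treated values lay below both untreated ones, by a narrow margin in replicate 1, and the log2 change was -0.67 (SE 0.48, limma adjusted p = 0.671). SPRED2 had 12.7 and 19.8 FPKM in fluorouracil-treated cells, against 13.2 and 14.1 FPKM in untreated cells, so its groups overlapped. Its log2 change was 0.22 (SE 0.34, limma adjusted p = 0.764).

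The SPRED1 transcript is 38.9% G and C, the lowest share among the 10 genes, and that of SPRED2 is 48.7%. After the correction for GC content and length, the log2 change of SPRED1 in fluorouracil replicate 2 was -0.26 in place of -1.24, and in replicate 1 it was -0.08 in place of -0.09. SPRED2 kept 0.43 of its 0.53 in replicate 2. The ratio of SPRED2 to SPRED1 was 0.838 and 2.92 in fluorouracil replicates 1 and 2, against 0.848 and 0.841 in the untreated libraries, and fluorouracil replicate 2 stood apart from the other 3. The low-level relative SPRED3 had 0.527 and 0.747 FPKM in treated cells, against 0.334 and 0.228 FPKM in untreated cells, and was not tested.

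ETV5 and ETV4 encode closely related ETS factors of the PEA3 group. ETV5 lies at chr3:186046308-186110318 (minus strand), and ETV4 at chr17:43527844-43579620 (minus strand). ETV5 had 10.8 and 9.71 FPKM in fluorouracil-treated cells, against 5.04 and 6.45 FPKM in untreated cells. Both treated values lay above both untreated ones, and the means were 10.3 ± 0.795 FPKM in treated and 5.75 ± 1.001 FPKM in untreated cells (SD, n = 2 each). The log2 change was 0.84 (SE 0.30), and the limma p was 0.0442 unadjusted and 0.671 adjusted. The treated libraries were alike, with log2 changes of 0.91 and 0.76, and of 0.89 and 0.67 once corrected for GC content and length. ETV5 shares exon sequence with DGKG on the same strand, a gene with 0.317 and 0.256 FPKM in treated cells and 0.519 and 0.422 FPKM in untreated cells.

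ETV4 had 25.6 and 69.3 FPKM in fluorouracil-treated cells, against 28.7 and 27.0 FPKM in untreated cells. The treated values lay on either side of the untreated ones. The log2 change of 0.60 (SE 0.56, limma adjusted p = 0.671) rested on fluorouracil replicate 2, and without that library it was -0.12. The ETV4 transcript is 60.8% G and C, and once corrected its changes in replicates 1 and 2 were -0.12 and 0.07. DHX8 overlaps ETV4 exons on the opposite strand, and since the counting is not stated to use strand, their reads cannot be told apart there. DHX8 had 9.11 and 9.16 FPKM in treated cells, against 8.47 and 9.62 FPKM in untreated cells. ETV1, the other PEA3 factor, had 0.951 and 0.609 FPKM in treated cells, against 0.692 and 1.09 FPKM in untreated cells, and was not tested.

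PHLDA1 encodes a pleckstrin homology-like protein that is induced by growth factors, and lies at chr12:76025447-76033932 (minus strand). It had 11.7 and 11.7 FPKM in fluorouracil replicates 1 and 2, against 27.2 and 23.6 FPKM in untreated replicates 1 and 2. The treated libraries were nearly equal and both lay below the untreated ones, at means of 11.7 ± 0.0258 FPKM in treated and 25.4 ± 2.51 FPKM in untreated cells (SD, n = 2 each). The log2 change was -1.11 (SE 0.27), and the limma p was 0.013 unadjusted and 0.671 adjusted. Corrected for GC content and length it was -1.13 in replicate 1 and -0.57 in replicate 2. Uncorrected, its change stood at percentile 1.3 of all tested genes in replicate 1 and at 14.2 in replicate 2. Annotated antisense genes overlap PHLDA1 and IER3 exons, and the strand of the reads is not stated.

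EPHA2, a receptor tyrosine kinase for ephrin-A ligands that is also induced by ERK, had 41.5 and 109 FPKM in fluorouracil-treated cells, against 50.6 and 43.5 FPKM in untreated cells. IER3, an immediate early gene whose product affects survival and ERK signalling, had 41.7 and 117 FPKM in fluorouracil-treated cells, against 67.3 and 52.2 FPKM in untreated cells. EPHA2 lies at chr1:16124337-16156087 (minus strand), and IER3 at chr6:30743199-30744554 (minus strand). In both genes fluorouracil replicate 1 was the lowest library and replicate 2 the highest, so the groups overlapped. The log2 changes over all libraries were 0.52 for EPHA2 (SE 0.55, limma adjusted p = 0.685) and 0.24 for IER3 (SE 0.59, limma adjusted p = 0.847). Without fluorouracil replicate 2 they were -0.18 and -0.51. Their transcripts are 60.3% and 58.5% G and C. After correction the changes in replicates 1 and 2 were -0.17 and 0.24 for EPHA2 and -0.53 and -0.37 for IER3, so that IER3 then had lower values in both treated libraries.

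**Figure D2:**
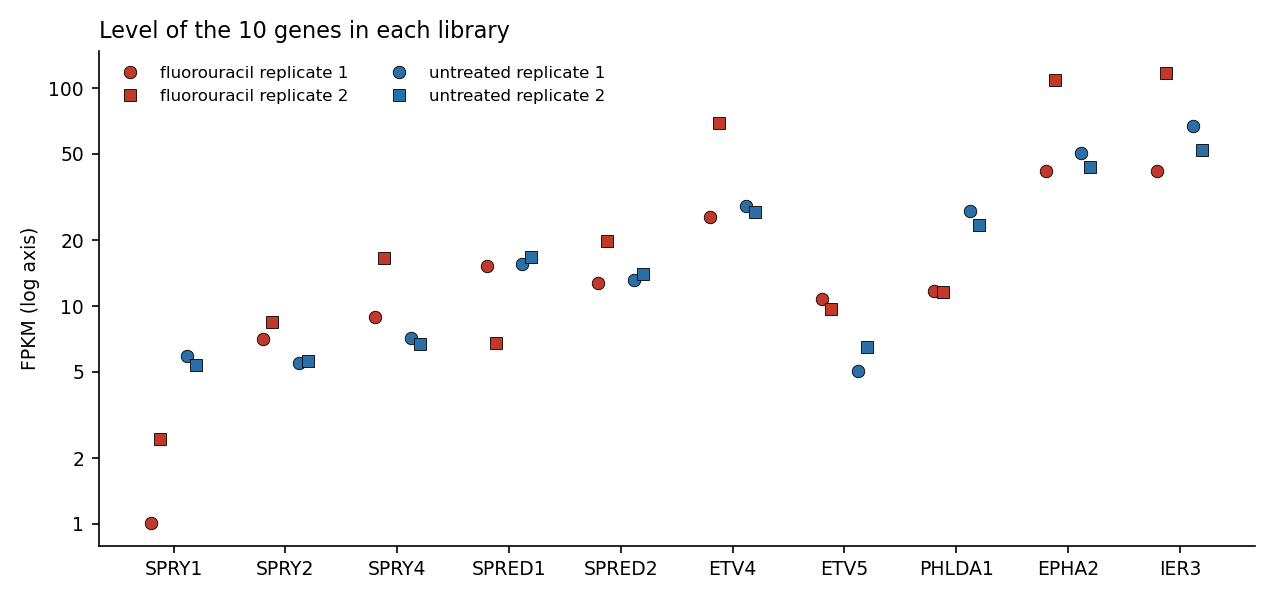
FPKM of the 10 genes on a log axis in each library, fluorouracil in red to the left of untreated in blue, with circles for replicate 1 and squares for replicate 2. SPRY2, SPRY4 and ETV5 have both red points above both blue ones, SPRY1, SPRED1 and PHLDA1 have both below, and in SPRED2, ETV4, EPHA2 and IER3 the red square alone is high.

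In untreated cells the level of the genes ran from IER3 and EPHA2, at 59.8 ± 10.7 and 47.1 ± 5.06 FPKM, over ETV4 and PHLDA1, at 27.8 ± 1.203 and 25.4 ± 2.51 FPKM, to SPRED1 and SPRED2, at 16.2 ± 0.820 and 13.7 ± 0.615 FPKM (SD, n = 2). SPRY4 followed at 6.90 ± 0.324 FPKM, and ETV5, SPRY1 and SPRY2 at 5.75 ± 1.001, 5.63 ± 0.390 and 5.54 ± 0.104 FPKM overlapped. ETV4 and PHLDA1 also overlapped in range, and the intervals of 1 SD around the means of IER3 and EPHA2 overlapped. IER3, EPHA2 and ETV4 stayed the 3 highest in every library. PHLDA1 was the next in both untreated libraries and the sixth in both treated ones, and SPRY1 was the lowest in both treated ones and in untreated replicate 2.

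By the test across all genes no member was called. Of the 10 genes, 0 had a limma adjusted p below 0.05, as had 0% of the 12462 genes tested, and 3 had an unadjusted p below 0.05 (SPRY1, ETV5 and PHLDA1), against 3.21% of all genes. All 10 passed the filter of a mean of at least 1 FPKM. Both treated values lay above both untreated ones in 3 members, against 24.4% of all genes tested, and below in 3, against 19.3%. On values corrected for GC content and length these counts were 3 and 4, beside 22.3% and 24.6% of 10520 protein-coding genes. The median log2 change of the 10 genes was 0.36, beside 0.10 over all tested genes, and after correction it was 0.0066, beside 0.0091. Leaving out fluorouracil replicate 2 gave the 10 genes a median of -0.11, and leaving out replicate 1 a median of 0.68, so the sign rested on replicate 2.

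With only 1 treated library in the fit, the lone library is assumed to vary like the untreated pair, and the fits hold no spread between treated libraries. On corrected values, SPRY1, ETV5 and PHLDA1 were called without fluorouracil replicate 2, when 4.75% of 10520 genes were called (limma adjusted p = 0.000447, 0.0348 and 0.00321). They were also called without fluorouracil replicate 1, together with SPRY4 and SPRED2, when 45.1% of genes were called. On the deposited FPKM, no member was called without fluorouracil replicate 2, when 0.144% of genes were called, and all 10 were called without fluorouracil replicate 1, when 66.9% were. A lone treated value misses the range of 2 untreated ones in most genes. On the deposited FPKM, fluorouracil replicate 1 alone was above both untreated libraries in 3 members, against 39% of all genes, and below both in 7, against 36.4%. Fluorouracil replicate 2 alone was above both in 7, against 52.9%, and below both in 3, against 41.4%. On corrected values replicate 1 was above in 3 and below in 7, beside 36.6% and 39.2% of genes, and replicate 2 above in 6 and below in 4, beside 44.2% and 44.3%. With untreated replicate 1 left out, 3 members were above and 3 below, beside 32.9% and 26.4% of genes, and with untreated replicate 2 left out again 3 and 3, beside 32.2% and 25.5%. A block for the replicate number called 2.72% of genes and no member.

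**Figure D3:**
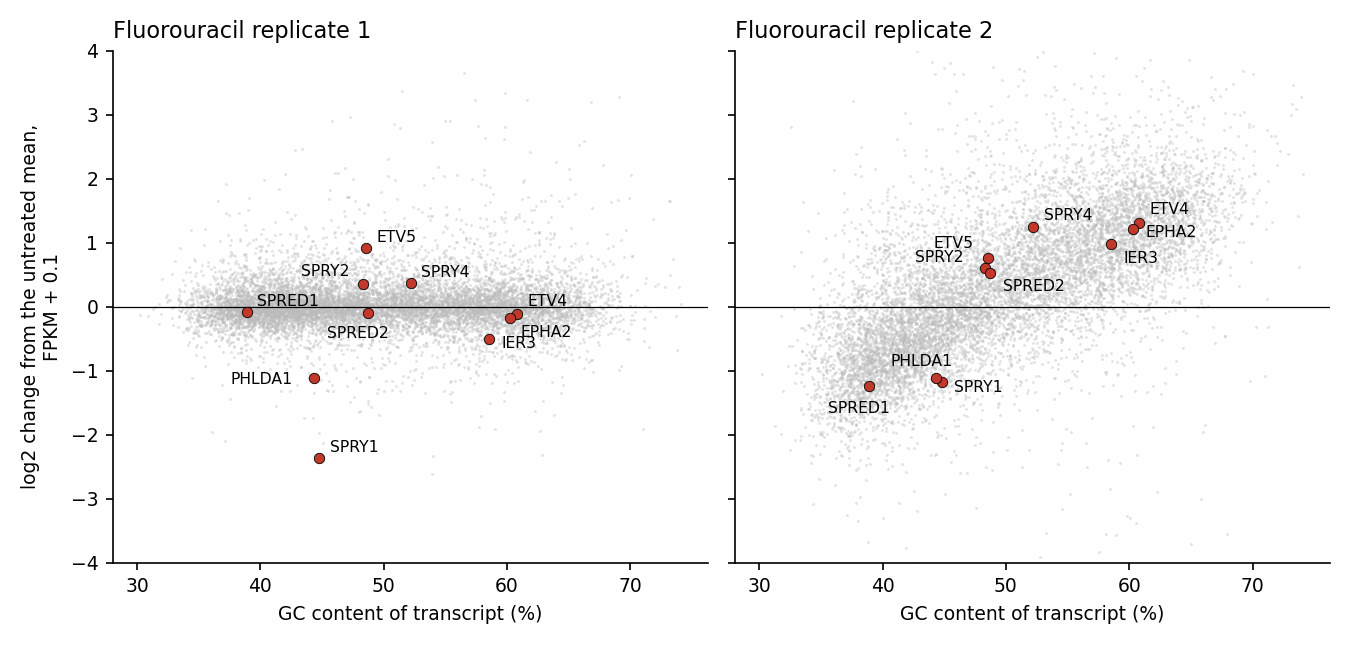
Log2 change of each fluorouracil library from the untreated mean (FPKM + 0.1) against the GC content of the transcript in percent, with 10520 protein-coding genes in grey and the 10 genes in red; 5 genes in replicate 1 and 148 in replicate 2 lie outside the axis. In replicate 1 the grey cloud is flat and SPRY1, PHLDA1 and ETV5 lie at its edges; in replicate 2 the cloud climbs with GC content and ETV4, EPHA2, IER3 and SPRED1 lie within it.

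**Figure D4:**
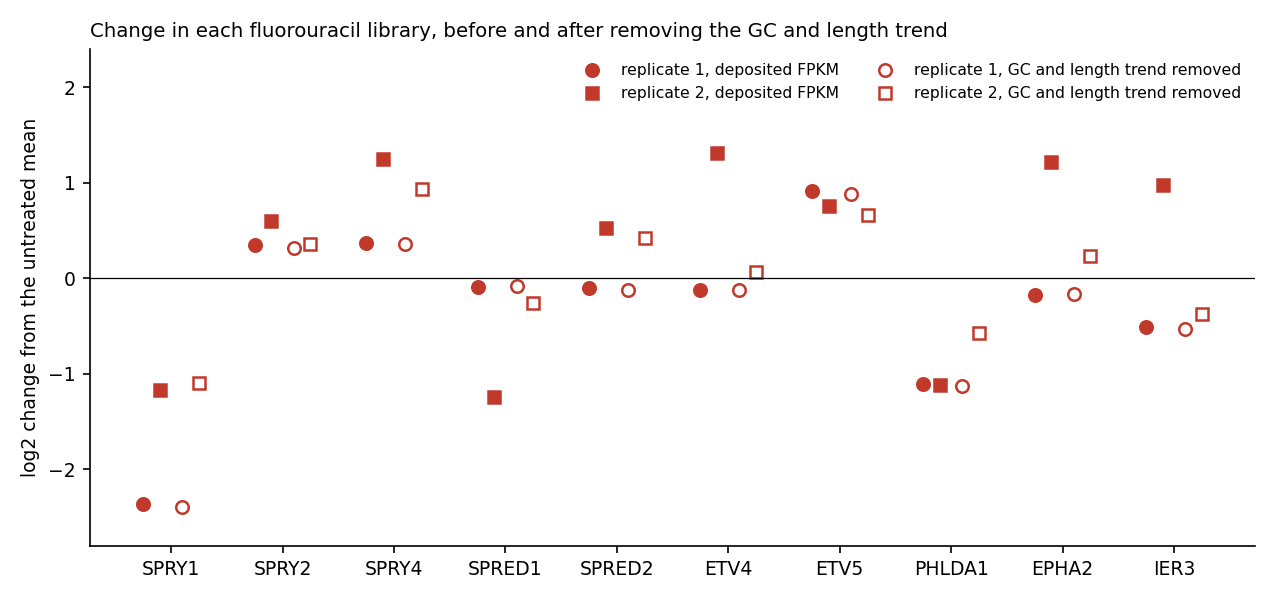
Log2 change from the untreated mean for each of the 10 genes, with circles for fluorouracil replicate 1, squares for replicate 2, filled for the deposited FPKM and open after correction for GC content and length. ETV4 in replicate 2 comes to 0.07 from 1.31 and IER3 to -0.37 from 0.98, while SPRY1 keeps -1.10 of -1.17 and ETV5 0.67 of 0.76.

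The rest of the pathway was described by lists written with earlier results of these data known. Of 18 other ERK feedback and output genes 14 were tested, 0 passed the limma test, and 5 had an unadjusted p below 0.05, against 3.21% of all genes. Both treated values were above both untreated ones in 8, against 24.4% of all genes, and below in 4, against 19.3%. The median log2 change was 0.80, and 0.46 without fluorouracil replicate 2. After correction the median was 0.21, with 6 above and 4 below, beside 22.3% and 24.6% of all corrected genes. The largest log2 change was that of EGR1, a zinc finger factor, at 2.996 (SE 0.33), followed by HBEGF, an EGF receptor ligand, at 1.98 (SE 0.27). EGR1 had 59.7 and 68.0 FPKM in treated cells, against 9.54 and 6.53 FPKM in untreated cells. HBEGF had 11.7 and 11.5 FPKM in treated cells, against 2.89 and 2.86 FPKM in untreated cells. The smallest changes were those of MYC, a transcription factor of growth, at -2.03 (SE 0.49), and of DUSP4, an ERK phosphatase of the nucleus, at -1.13 (SE 0.32). MYC had 17.9 and 40.4 FPKM in treated cells, against 119.1 and 102.1 FPKM in untreated cells. DUSP4 had 3.25 and 4.301 FPKM in treated cells, against 8.94 and 7.67 FPKM in untreated cells. Corrected, the log2 changes were 2.61 for EGR1, 1.70 for HBEGF, -2.44 for MYC and -1.23 for DUSP4, each with its sign kept. The output genes outside the 10, like the 10 themselves and like all tested genes, held genes with higher and genes with lower values. DUSP6, named after its values were seen as the ERK-specific phosphatase most often read as ERK output, had 24.2 and 28.8 FPKM in treated cells, against 28.5 and 28.2 FPKM in untreated cells, and its groups overlapped. Of the same list, DUSP5 had 6.79 and 12.2 FPKM in treated cells, against 3.89 and 5.33 FPKM in untreated cells. DUSP7 had 7.49 and 8.12 FPKM in treated cells, against 5.52 and 4.44 FPKM in untreated cells. Both phosphatase genes were thus higher without overlap, while DUSP4 was lower. Corrected, the log2 changes of DUSP5 and DUSP7 were 0.53 and 0.15.

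Of 26 genes of the RAS-RAF-MEK-ERK cascade and its adaptors 25 were tested, and 0 had a limma p below 0.05 before or after adjustment. Both treated values were above in 6 of the 25, against 24.4% of all genes, and below in 5, against 19.3%. After correction they were above in 2 and below in 6, beside 22.3% and 24.6%. The median log2 change was -0.0042, and -0.02 after correction. MAP2K2, which encodes MEK2 and has 65.5% G and C, had 36.6 and 120.4 FPKM in treated cells, against 32.9 and 35.6 FPKM in untreated cells. Corrected, its log2 change was 0.12, in place of 0.95. SRF, serum response factor, had 12.99 and 18.8 FPKM in treated cells, against 9.61 and 7.44 FPKM in untreated cells (log2 change 0.88, and 0.39 corrected). RASA1, a RAS GTPase-activating protein, had 25.6 and 18.9 FPKM in treated cells, against 33.7 and 36.3 FPKM in untreated cells (log2 change -0.67, and -0.25 corrected).

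Among 12 partners of Sprouty and SPRED proteins 11 were tested and 0 had a limma p below 0.05 before or after adjustment. Both treated values were above in 2, against 24.4% of all genes, and below in 3, against 19.3%. The median log2 change was 0.06. After correction 1 was above and 3 below, beside 22.3% and 24.6% of genes, with a median of -0.02. The median was also negative without fluorouracil replicate 2 (-0.05) and without untreated replicate 2 (-0.17). TESK1, a kinase bound by Sprouty, had 5.11 and 14.6 FPKM in treated cells, against 6.62 and 4.57 FPKM in untreated cells. PPP2R1A, a scaffold of the phosphatase PP2A, had 105.3 and 267.6 FPKM in treated cells, against 113.9 and 103.3 FPKM in untreated cells. Both were higher in fluorouracil replicate 2 alone, and their log2 changes of 0.65 and 0.63 were -0.10 and 0.44 after correction. CAV1, which encodes caveolin, had 4.46 and 1.15 FPKM in treated cells, against 5.00 and 4.67 FPKM in untreated cells. NEDD4, a ubiquitin ligase, had 7.71 and 3.33 FPKM in treated cells, against 9.03 and 7.85 FPKM in untreated cells. Their log2 changes of -1.05 and -0.72 were -1.04 and -0.18 after correction, so NEDD4 was then close to the untreated level.

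Of 10 ephrin-A ligand and other EPHA receptor genes 6 were tested and 0 had a limma p below 0.05 before or after adjustment. Both treated values were above in 1, against 24.4% of all genes, and below in 0, against 19.3%. The median log2 change was 0.12. After correction the median turned to -0.35, with 1 above and 4 below, beside 22.3% and 24.6% of genes. Uncorrected and without fluorouracil replicate 2 the median was -0.13. EFNA4, a ligand gene, had 7.42 and 28.1 FPKM in treated cells, against 3.996 and 6.01 FPKM in untreated cells (log2 change 1.54, and 0.85 corrected). EPHA1, EFNA5 and EFNA2 had overlapping groups, with log2 changes of 0.33, -0.06 and -0.20, which were -0.17, 0.19 and -1.32 after correction. The 4 genes that were lower after correction were EFNA2, EPHA1, EFNA1 and EFNA3, of which EFNA1 and EFNA3 had corrected changes of -0.55 and -0.52.

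**Figure D5:**
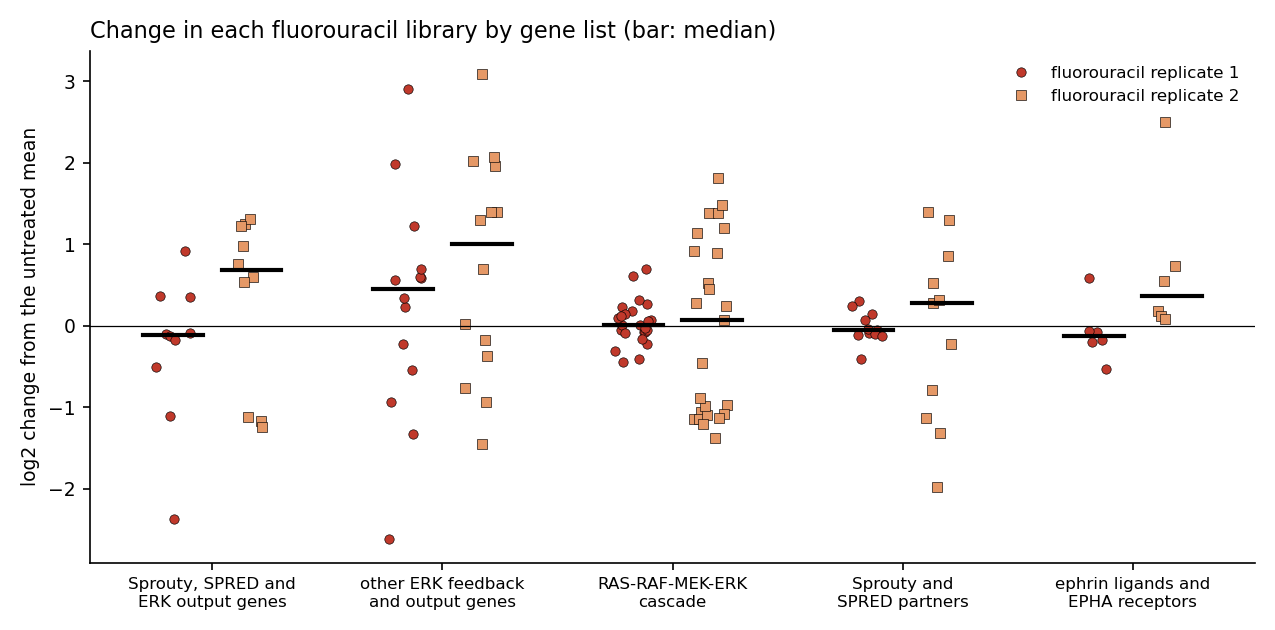
Log2 change from the untreated mean of every tested gene of 5 lists, with red circles for fluorouracil replicate 1, orange squares for replicate 2 and bars for the medians. Cascade genes run from -0.45 to 0.69 in replicate 1 and from -1.37 to 1.81 in replicate 2, while the list of other ERK feedback and output genes has EGR1 at 2.90 and MYC at -2.62 already in replicate 1.

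The genes closest to the median profile of the 10, by root mean square distance over the 4 libraries, were SPR, SBF1, SHMT1, TIMM22 and MYL12B, at 0.017 to 0.0201 log2 units. That profile was -0.11 in fluorouracil replicate 1 and 0.68 in replicate 2. The members themselves lay farther from it, from 0.0981 for SPRED2 to 1.46 for SPRY1, so the median profile describes few of them.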

How the data were processed

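The authors deposited 1 table of values by gene symbol, with a column for each of 4 libraries (2 fluorouracil, 2 untreated) and no unit in its header. They were taken as FPKM because Cufflinks is among the tools that the submitters named. The submitters' processing notes name TopHat2 2.1.0 and Cufflinks 2.2.1 with the builds hg38 and mm10, without roles; for the annotation, strand setting and scaling nothing was stated. FPKM keeps no depth, so precision rests on 2 libraries per group. Of 33117 rows, 28 with a date-like number as symbol were left out. In fluorouracil replicate 2 a block of 78 rows looked shifted by 1 row (r of 0.914 with the other libraries after a shift, against 0.410 in place); no gene named here lies in it.

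Values were transformed to log2(FPKM + 0.1), which understates changes of low genes. Genes averaging at least 1 FPKM (12462) were compared by limma 3.58.1 in R 4.3.3 (trended prior variance, two-sided, 2 residual degrees of freedom, Benjamini-Hochberg adjustment, threshold 0.05). Symbols were matched to GENCODE 29 for type, GC content and length of the longest transcript, and a loess trend on both (span 0.3) was subtracted from each library over 10520 protein-coding genes. The fit and the loess step were run on data simulated with the spread of the untreated pair. The fit was not run there with a treated library standing apart as fluorouracil replicate 2 did. All 10 members are named; of each list, the 2 largest and the 2 smallest changes, and the 5 genes most like the median profile; 1 gene named by this rule is not reported here; ratios and other genes were chosen after their values were seen. The members and lists were chosen with earlier results of these data known. Alternatives covered the pseudocount, filter, scaling, prior variance, gene type, replicate block and each library left out; those combining the trend removal with a library left out, and leaving out the shifted block, were added after seeing the data.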

Additional observations from a re-analysis of the deposited data

How the results depend on the processing

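SPRY1, SPRY2, SPRY4, SPRED1, ETV5 and PHLDA1 had the same direction under each alternative run (17 for SPRY1, which a minimum mean of 5 FPKM removes, and 18 for the others). Their groups did not overlap, so leaving out a library could not change the direction. Several other runs changed only the variance or the genes tested and left the estimate as it was. The number of runs with the same direction is thus no measure of support. Across the 4 fits that left out a library, 0 to 8337 genes and 0 to 10 members were called, and 3 to 7 members were higher and 3 to 7 lower without overlap. Of all genes, 32.2% to 52.9% were higher and 25.5% to 41.4% lower without overlap in these fits; the 7 higher members, without fluorouracil replicate 1, stood beside 52.9%, and the 7 lower, without fluorouracil replicate 2, beside 36.4%. The log2 change in these fits ranged from -0.099 to 0.53 for SPRED2, -0.12 to 1.31 for ETV4, -0.18 to 1.22 for EPHA2 and -0.51 to 0.98 for IER3, and the cascade median from -0.017 to 0.072. Without fluorouracil replicate 1, 8337 genes passed, and without fluorouracil replicate 2, 18; a fit with 1 treated library has no treated spread.

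After correction for GC content and length, ETV4 and IER3 reversed in sign, to -0.023 (SE 0.16) and -0.45 (SE 0.18). ETV4 was then close to the untreated level. The medians of other ERK output genes and of ephrin and EPHA genes were 0.21 and -0.35 after this correction. Corrected and without fluorouracil replicate 2, 500 genes and 3 members were called, 7 members were lower without overlap beside 39.2% of all genes, and SPRED2, ETV4, EPHA2 and IER3 were at -0.12, -0.12, -0.17 and -0.53. Corrected and without fluorouracil replicate 1, 4742 genes and 5 members were called, 6 members were higher without overlap beside 44.2% of all genes, IER3 was at -0.37, and the medians of other ERK output, cascade, and ephrin and EPHA genes were 0.037, -0.096 and -0.57. IER3 also reversed under quantile normalization, to -0.0855. Without a filter on low values the cascade median was -0.060 and that of other ERK output genes 0.33. The cascade median was 0.21 at a minimum mean of 5 FPKM, -0.051 with median scaling and -0.13 with quantile normalization.

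The replicate numbers are not shown to pair samples: deviations of same-numbered libraries correlated at -0.048 across genes. The replicate block called 339 genes, no member among them, and with the correction as well it called 0, with the same reversals (ETV4 -0.023, IER3 -0.45) and medians (0.21 and -0.35). The cause of these differences was not tested. The unknown depth limits what can be said of genes near 1 FPKM, such as SPRY1 in treated cells.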
